A study of Homo sapiens with 6 samples.

Results

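REST and 33 genes tied to it were followed in A549, a lung adenocarcinoma line of human origin: REST itself, 7 of its corepressors and 26 neuronal genes known as its targets. Every probe set that the array annotation assigns to exactly 1 of these genes was taken, which gave 61 probe sets for all 34 genes, out of 19775 genes with such a probe set. The list was drawn up with the lower REST signal after CNOT3 knockdown already known, so REST values in that comparison are given as a description with no test. Counts and p-values of the other genes come from the same comparison and are not independent support for a link to REST. The cells were 3 stable lines: A549-T-shNTC with a non-targeting hairpin, A549-T-shCNOT3-1 and A549-T-shCNOT3-2 with separate hairpins against CNOT3, each grown without doxycycline (DOX) and with 1 ug/ml DOX for 72 hours. All 3 lines carry a lentiviral, tetracycline-inducible hairpin, which DOX switches on, and each line and DOX state is represented by 1 array, so the only replicates of knockdown are the 2 hairpins. Nothing in the labels tells of separate cultures. The spread behind the main p-values comes from the shNTC change with DOX and the difference between the hairpins, not from repeated cultures. Unless said otherwise, a p-value belongs to the mean change of the hairpins and does not test a difference from shNTC. CNOT3 belongs to CCR4-NOT, a deadenylase complex that removes poly(A) tails from mRNAs. On these arrays CNOT3 intensity with DOX was 93.4% of that without it in shNTC, 36.1% in shCNOT3-1 and 20.5% in shCNOT3-2.

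REST, also called NRSF, is a zinc finger protein that binds a DNA element named RE1 and keeps neuronal genes off in cells that are not neurons. It recruits SIN3A with histone deacetylases at one end of the protein and RCOR1 with the demethylase KDM1A at the other, and its loss during neuronal differentiation accompanies the switching on of genes for synaptic vesicles, secretory granules and axons. Lung tumours with low REST activity are known for neuroendocrine traits such as chromogranin production. The comparison asked whether the lower REST signal with CNOT3 knockdown went with higher signals of the neuronal genes.

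RE1 has a left core, CAGCACC, and a right core, GGACAG. Windows of 300 bases around gene starts (250 before and 50 after, RefSeq, GRCh38.p14) were held for 17 of the 26 neuronal genes, and both cores in that order on the same strand with at most 10 bases between them stood in 3 of them, SYN1, SCG3 and UNC13A. Both strands were searched, and 6 of the 17 genes held the left core and 9 the right core. Of all 27305 genes with a window, 0.179% held the pair, 9.3% the left core and 24.0% the right core. Counted by window, of which there were 35116, the shares were 0.151%, 7.75% and 20.5%. L1CAM and SYT4 held the left core alone, and CELSR3 held both cores but not as such a pair. These stretches show the element whose repressor is the subject here, 5′ to 3′ on the strand that carries the motif, with the core letters in capitals (in CELSR3, L1CAM and SYT4 the left core only):

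SYN1, chrX:47620070-47620092, minus strand: gcttCAGCACCgcGGACAGtgcc

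SCG3, chr15:51681509-51681537, plus strand: acttCAGCACCcacagggcGGACAGcgct

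UNC13A, chr19:17688338-17688366, plus strand: ggttCAGCACCgggggcgcGGACAGcgcc

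CELSR3, chr3:48663008-48663036, minus strand: tgttCAGCACCaggagcaacgctcacgtc

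L1CAM, chrX:153876213-153876241, plus strand: ttccCAGCACCaacttgttgccccatcag

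SYT4, chr18:43277562-43277590, plus strand: aaatCAGCACCtgcccccctcccctcctc

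The cores were 2 bases apart in SYN1 and 8 bases apart in SCG3 and UNC13A. The SYN1 pair began 231 bases before the gene start, the SCG3 pair lay just after the start, at positions 11 to 31, and the UNC13A pair ran across it, from position -8 to 13. A match describes letters only and is not evidence of binding, and a window without a match says nothing about RE1 elements elsewhere in the gene.

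REST intensity, read from its brightest probe set and given without and then with DOX as for all pairs of values here, was 614 then 700 in shNTC, 894 then 323 in shCNOT3-1 and 888 then 236 in shCNOT3-2. The shCNOT3 arrays with DOX were the lowest of the 6 and lay well apart from the others, while the shNTC line began lower than the other lines without DOX. With DOX, 36.1% of the REST signal was left in shCNOT3-1, 26.6% in shCNOT3-2 and 114% in shNTC. Averaged over both hairpins the log2 change was -1.69 ± 0.31 (SD, n = 2), against 0.19 in shNTC. The line with less CNOT3 signal left with DOX, shCNOT3-2, also had less REST signal left in this probe set. With 1 pair of arrays per line that order was not tested.

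A second REST probe set gave intensities of 93.1 then 192 in shNTC, 187 then 132 in shCNOT3-1 and 139 then 50.3 in shCNOT3-2. There the order was less clear, since shNTC without DOX lay below shCNOT3-1 with DOX, and the log2 changes were 1.03, -0.50 and -1.45. The third probe set, a dim one, was lower in none of the lines, with log2 changes of 0.33, 0.09 and 2.37 from intensities of 6.48, 37.5 and 12.3 without DOX. With the mean of the 3 probe sets the REST change of the hairpins was -0.47.

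**Figure D1:**
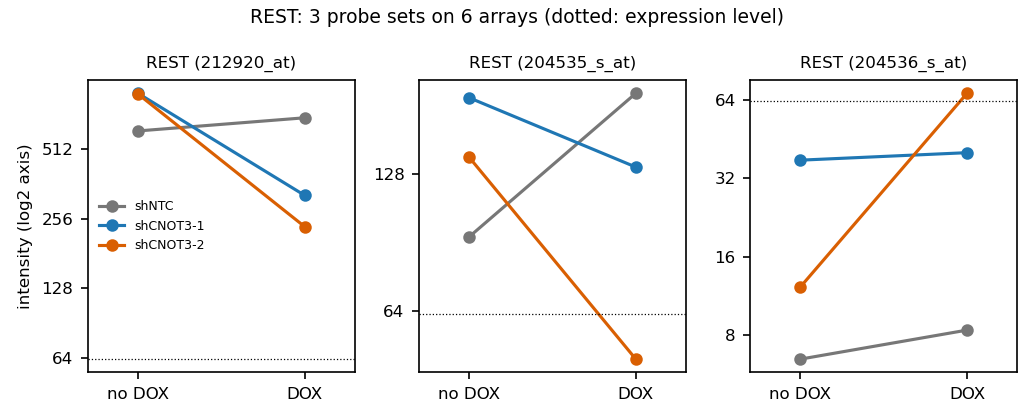
Intensity of the 3 REST probe sets (log2 axis) without and with DOX in shNTC (grey), shCNOT3-1 (blue) and shCNOT3-2 (orange), 1 array per point, with the expression level of 63 dotted. In the brightest probe set both shCNOT3 lines with DOX, at 323 and 236, lie below the 4 other arrays, and in the third probe set, a dim one, they do not.

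Throughout, a gene is represented by its brightest probe set, and a gene whose mean log2(intensity + 1) over the 6 arrays was under 6, an intensity of 63, is called not expressed. By that rule 23 of the 34 genes were expressed: REST, all 7 corepressors and 15 of the 26 neuronal genes. The nearest genes to the threshold were SCG5 and CHGA just inside, at 6.05 and 6.24, and SYN1 and BEX1 just outside, at 5.74 and 5.71. The mean includes the arrays with DOX, and 2 of the 15 neuronal genes, CHGA and SCG5, were under 6 in the mean of the 3 arrays without DOX, so counts over the 15 do not stand for all 26. In bulk RNA, a change in the number of cells that carry a transcript and a change in the amount per cell cannot be told apart.

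The corepressors showed no common direction. HDAC1, a histone deacetylase shared by the SIN3 and RCOR1 complexes, read 3676 then 4057 in shNTC, 4194 then 2748 in shCNOT3-1 and 3673 then 2474 in shCNOT3-2. Both shCNOT3 arrays with DOX were below the 4 others, as for 12.8% of all genes, with log2 changes of -0.61 and -0.57 against 0.14 in shNTC, and the adjusted p in limma was 0.167. RCOR1, the scaffold that holds KDM1A and HDAC1 to REST, was higher in both lines, from 1804 to 2417 and from 2237 to 2839, against 1911 and 1756 in shNTC (log2 0.42, 0.34 and -0.12, adjusted p = 0.364). KDM1A, a demethylase of histone H3, was higher with DOX in every line, by 0.33 and 0.43 in the shCNOT3 lines and 0.26 in shNTC.

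HDAC2, the partner deacetylase of HDAC1, gave -0.11 and -0.10 against -0.16 in shNTC, with a 95% interval of -0.45 to 0.24 for the mean of the hairpins, and a second, less bright probe set gave -0.85 and -0.24 against 0.23. SIN3A, the scaffold of the other corepressor complex, had opposite signs in the hairpins, 0.20 and -0.49, and a second probe set of similar brightness gave 0.38 and -0.36. CTDSP1, a small phosphatase that REST recruits and that acts on RNA polymerase II, was lower in 1 hairpin only: it read 1061 and 1141 in shCNOT3-1, 1098 and 393 in shCNOT3-2, and 1250 and 1337 in shNTC. EHMT2, the histone methyltransferase G9a, depended on the probe set, since the brightest gave 0.45 and 0.12 and the next -2.30 and -1.62, with 0.19 and 0.05 in shNTC. None of the 7 passed the threshold of 0.05 after adjustment over all 12569 genes tested in limma. At an unadjusted p under 0.05 there was 1 lower, HDAC1, and 0 higher, against 7.1% and 7.5% of all genes. Over all genes tested 0.294% passed after adjustment, 0.143% as higher and 0.151% as lower.

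Of the 15 expressed neuronal genes, 11 were higher with DOX in both shCNOT3 lines and none was lower in both. Over all genes tested, 33.2% were higher in both and 26.9% lower in both. The median change of the mean of the hairpins was 0.81 on the log2 scale over these 15 genes and 0.03 over all genes tested. By line the medians were 0.75 in shCNOT3-1, 0.88 in shCNOT3-2 and 0.35 in shNTC, where 11 of the 15 were higher with DOX too, against 48.8% of all genes. The control line moved in the same direction for much of the list. Higher in both shCNOT3 lines by more than in shNTC were 8 of the 15, against 25.1% of all genes. In 7 of the 15 the change was higher in shCNOT3-2 than in shCNOT3-1, as in 5997 of all 12569 genes tested.

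Only CHGB passed after adjustment over all genes, 1 of 15 where 0.143% of all genes passed as higher. At an unadjusted p under 0.05, 7 of the 15 were higher and 0 lower, against 7.5% and 7.1% of all genes. At least 2-fold higher in both hairpins were CHGA, CHGB and DNER, 3 of the 15, against 0.764% of all genes, and with no filter 7 of 26, against 2.78%. In 9 of the 15 both shCNOT3 arrays with DOX lay above the 4 other arrays, against 16% of all genes. One of these 9, CHGA, passed the expression level through its arrays with DOX. With no filter, 17 of all 26 neuronal genes were higher in both hairpins and 3 lower in both, where 31.8% and 24.9% of all genes were. With genes chosen on the 3 arrays without DOX alone, 10 of 14 were higher in both, against 32.1% of all genes, and 1, BEX1, was lower in both.

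**Figure D2:**
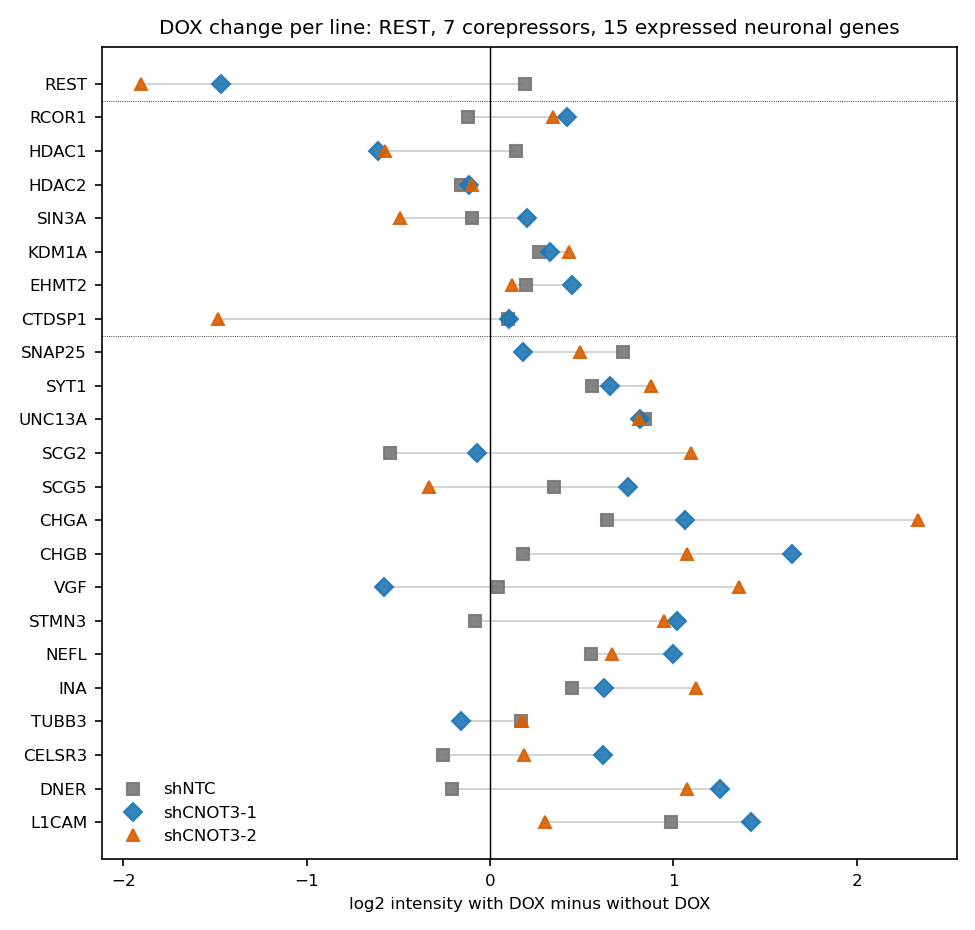
Log2 intensity with DOX minus without DOX (x axis) for REST, the 7 corepressors and the 15 expressed neuronal genes (rows), with shNTC as squares, shCNOT3-1 as diamonds and shCNOT3-2 as triangles, 1 pair of arrays per symbol. REST lies left of -1.4 in both shCNOT3 lines, and CHGB, DNER and STMN3 lie at 0.95 or above in both with shNTC between -0.21 and 0.18.

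The granin family, acidic proteins of dense-core secretory granules, includes CHGB, the only listed gene other than REST to pass after adjustment. Of the 5 expressed granule genes 2 were higher in both hairpins, a share of 40% against 33.2% of all genes. Their median change was 0.51. CHGB, which encodes chromogranin B, read 484 then 548 in shNTC, 440 then 1378 in shCNOT3-1 and 534 then 1124 in shCNOT3-2. Both shCNOT3 arrays with DOX stood far above the other 4 arrays, which lay between 440 and 548. CHGB rose 2.57-fold (log2 1.36 ± 0.22, SE of the model, adjusted p = 0.0484 in limma), with hairpin values of 1.65 and 1.07 and 0.18 in shNTC. This call is at the edge of the threshold: it ended without shCNOT3-1 (log2 1.07, adjusted p = 0.206), after quantile normalization (0.0524), with no filter on dim genes (0.120) and against the change of shNTC (1.18, adjusted p = 0.501), and over all alternatives the log2 value ran from 1.07 to 1.65.

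CHGA, chromogranin A, a tissue marker of neuroendocrine cells, read 42.9 then 67.4 in shNTC, 49.8 then 105 in shCNOT3-1 and 46.4 then 238 in shCNOT3-2. All 3 lines began at about the same dim level, under the expression threshold, and ended in the order shNTC, shCNOT3-1, shCNOT3-2. The log2 changes were 0.64, 1.06 and 2.33, and the mean of the hairpins, 1.70 ± 0.90 (SD, n = 2), had an adjusted p of 0.199 in limma. SCG3, secretogranin III, which binds chromogranin A in granules, was not expressed. It read 7.04 then 4.09 in shNTC, 1.07 then 24.8 in shCNOT3-1 and 5.31 then 33.8 in shCNOT3-2, so its highest readings came from both shCNOT3 arrays with DOX but stayed under 63.

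The other granule genes did not share this pattern. VGF, a neuropeptide precursor, read 317 and 212 in shCNOT3-1 but 192 and 495 in shCNOT3-2, with 179 and 185 in shNTC, which gave opposite changes of -0.58 and 1.36. SCG2, secretogranin II, gave -0.07 and 1.09 against -0.54 in shNTC, and SCG5, a chaperone of a prohormone convertase, gave 0.75 and -0.33 against 0.35. The VGF probe set is of the x type, which can bind several transcripts.

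**Figure D3:**
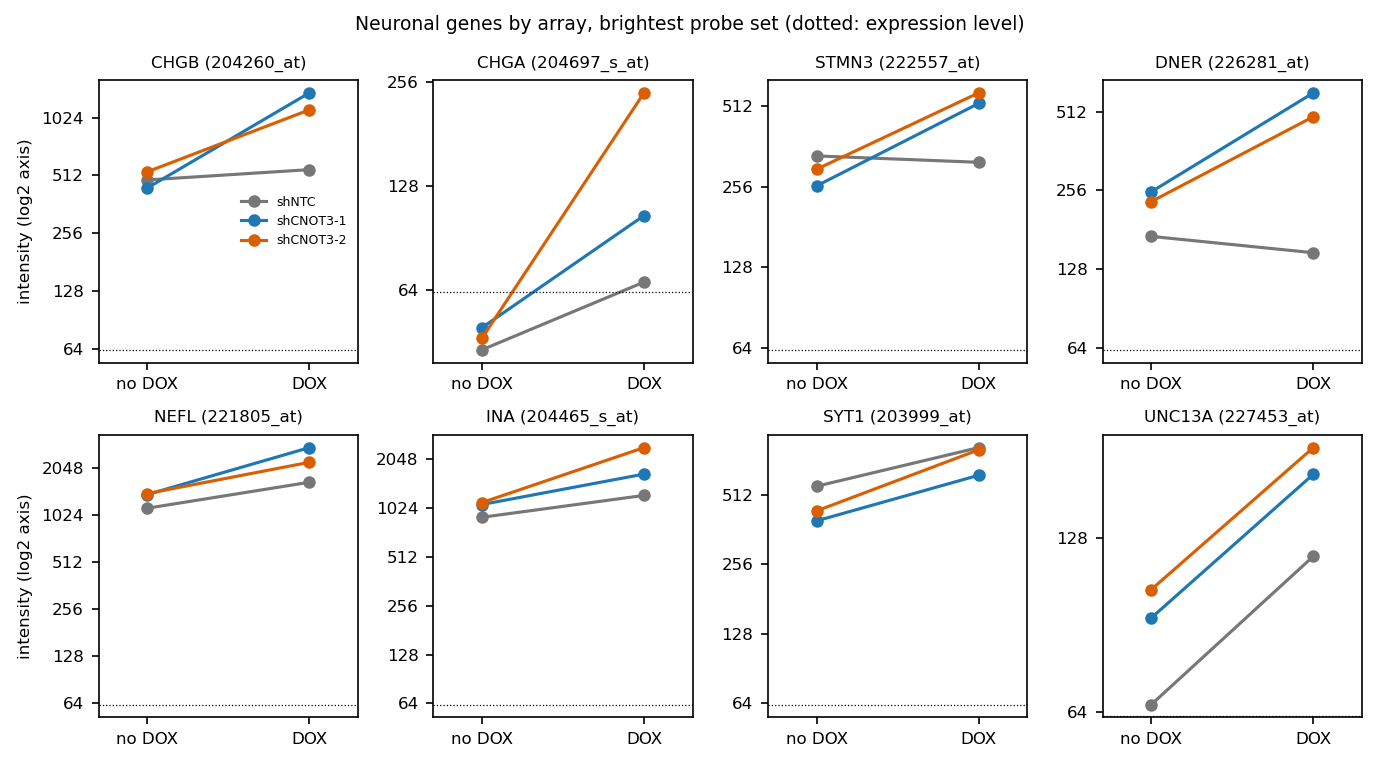
Intensity (log2 axis, different in each panel) without and with DOX for 8 expressed neuronal genes in shNTC (grey), shCNOT3-1 (blue) and shCNOT3-2 (orange), 1 array per point, with the expression level of 63 dotted. CHGB, STMN3 and DNER separate the shCNOT3 lines from a flat shNTC line, whereas SYT1 and UNC13A climb about as much in shNTC.

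Among genes of the cytoskeleton, STMN3, a stathmin that destabilises microtubules in neurites, read 334 then 317 in shNTC, 258 then 526 in shCNOT3-1 and 298 then 576 in shCNOT3-2. Both shCNOT3 arrays with DOX were above all others, and the hairpins were close to each other, with log2 changes of 1.02 and 0.95 against -0.08. The adjusted p was 0.100 for a mean of 0.98 ± 0.22 (SE), a 1.98-fold difference. A second STMN3 probe set was dim and gave 0.24 and -0.31.

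NEFL, the light neurofilament chain, read 1132 then 1658 in shNTC, 1384 then 2760 in shCNOT3-1 and 1404 then 2224 in shCNOT3-2. The shCNOT3 arrays with DOX were the highest, but shNTC was higher with DOX as well, so the log2 changes were 1.00 and 0.66 against 0.55. Other NEFL probe sets gave 0.39 and 1.15 against -0.01, and 0.45 and 0.43 against 0.89, so the share that shNTC took depended on the probe set. INA, alpha-internexin, which assembles with the neurofilaments, read 899 then 1226 in shNTC, 1078 then 1660 in shCNOT3-1 and 1108 then 2417 in shCNOT3-2. Its changes were 0.62 and 1.12 against 0.45, with no overlap between both shCNOT3 arrays with DOX and the others. Adjusted p values in limma were 0.158 for NEFL and 0.143 for INA.

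NEFM, the medium neurofilament chain, was not expressed, and read 14.6 then 11.3 in shNTC, 5.96 then 38.1 in shCNOT3-1 and 8.76 then 38.8 in shCNOT3-2. NEFH, the heavy chain, was not expressed either and differed in sign, at 1.17 and -3.39. TUBB3, the class III beta-tubulin used as a marker of neurons and present in many carcinomas, did not share the higher values. It read 10285 then 11552 in shNTC, 11517 then 10318 in shCNOT3-1 and 10605 then 11981 in shCNOT3-2, and the 95% interval for the mean change was -0.32 to 0.34. Both TUBB3 probe sets are of the x type. STMN2, a growth cone stathmin, was not expressed. Its brightest probe set gave -0.05 and -0.22 against 1.55 in shNTC, and the other 0.90 and -2.29 against 1.13. GAP43, a growth cone membrane protein, was not expressed in any of 3 probe sets. The dimmest GAP43 probe set read 2.91 then 3.53 in shNTC, 2.78 then 30.8 in shCNOT3-1 and 3.29 then 38.8 in shCNOT3-2. The brightest was higher in shNTC too, with 1.26 and 1.87 against 1.90. The remaining GAP43 probe set was lower in both hairpins, at -0.18 and -0.51 against 1.51.

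Genes of the synaptic vesicle cycle were split. SYP, synaptophysin, a membrane protein of synaptic vesicles and a marker of neuroendocrine tumours, was not expressed over the 6 arrays but stood out: it read 18.1 then 18.2 in shNTC, 21.8 then 86.2 in shCNOT3-1 and 24.1 then 116 in shCNOT3-2. Both shCNOT3 arrays with DOX passed 63 and the 4 others lay at 24.1 or under. The log2 changes were 1.94 and 2.22 against 0.01, though fold values from such dim readings are uncertain.

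SYT1, the calcium sensor of vesicle release, read 558 then 820 in shNTC, 395 then 622 in shCNOT3-1 and 436 then 803 in shCNOT3-2. The highest reading came from shNTC with DOX, and log2 changes were 0.66 and 0.88 against 0.56. In this probe set the shCNOT3 lines were higher by little more than the control (0.21 beyond shNTC, adjusted p = 0.920 in limma). A second, less bright SYT1 probe set gave 0.20 and 0.57 against 0.46, so there the shNTC change lay between the hairpin values. UNC13A primes vesicles for release, and its window holds an RE1 pair printed above. Its brightest probe set was higher with DOX by about the same amount in every line: 0.82, 0.81 and 0.84 in shNTC. A second, dimmer UNC13A probe set gave -0.42 and 0.71 against -2.33. SNAP25, a SNARE protein of the plasma membrane, gave 0.18 and 0.49 and a larger 0.73 in shNTC. Other SNAP25 probe sets gave 0.02 and 0.05 against 0.28, and 0.89 and 0.27 against 0.39. SYN1, which tethers vesicles to actin and whose window holds the pair with 2 bases between the cores, was not expressed, and its probe sets gave 0.03 and 1.44, and -1.01 and 1.96. CPLX1, a SNARE-binding complexin, was not expressed and read 36.4 and 50.3 with DOX in the shCNOT3 lines, while shCNOT3-2 without DOX already read 36.4. SYT4, a synaptotagmin, was not expressed and differed in sign, at 0.45 and -0.72.

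Of the remaining genes, DNER, a transmembrane ligand of Notch with EGF repeats, read 171 then 148 in shNTC, 253 then 605 in shCNOT3-1 and 232 then 490 in shCNOT3-2. Both shCNOT3 arrays with DOX were above the others by a wide margin, and both shCNOT3 lines were above shNTC before DOX. DNER was 2.24-fold higher (log2 1.16 ± 0.25, SE, adjusted p = 0.0913 in limma), with 1.25 and 1.07 by hairpin and -0.21 in shNTC. It passed in the limma fit with no term for line (log2 1.47, adjusted p = 0.0258). That fit drops the pairing of each line with itself, so its value takes in the differences between lines before DOX. Over all genes 191 passed in it, against 37 with the pairing. CELSR3, an atypical cadherin of axon guidance, was higher by 0.61 and 0.18 against -0.25 in shNTC, and a second probe set gave 0.35 and 0.23 against 0.05. L1CAM, a neural adhesion molecule, read 54.3 then 109 in shNTC, 80.4 then 217 in shCNOT3-1 and 138 then 170 in shCNOT3-2. Its shNTC change of 0.99 lay between the hairpin values of 1.42 and 0.30. BEX1, a small brain-expressed protein, was lower in both hairpins (-0.33 and -1.37) and was not expressed. GAD1, which makes the transmitter GABA, was not expressed either. Its brightest probe set was lower in both hairpins, at -0.63 and -0.99 against 1.43 in shNTC. The other GAD1 probe sets differed in sign between the hairpins, at -1.66 and 1.61, and -0.22 and 0.75.

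When the change of the shCNOT3 lines beyond that of shNTC was tested, no gene among all 12569 passed after adjustment in limma, a share of 0%, and without adjustment 566 were higher at p under 0.05 (4.5%) and 494 lower (3.93%). Among the 15 expressed neuronal genes 3 were higher at that unadjusted level, CHGB, STMN3 and DNER, and 0 lower. Their changes beyond shNTC were 1.18, 1.06 and 1.37, with adjusted p of 0.501, 0.547 and 0.465. The median over the 15 genes beyond shNTC was 0.35. For UNC13A (-0.03), L1CAM (-0.12), SCG5 (-0.14), TUBB3 (-0.16) and SNAP25 (-0.39) the value beyond shNTC was under 0.

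**Figure D4:**
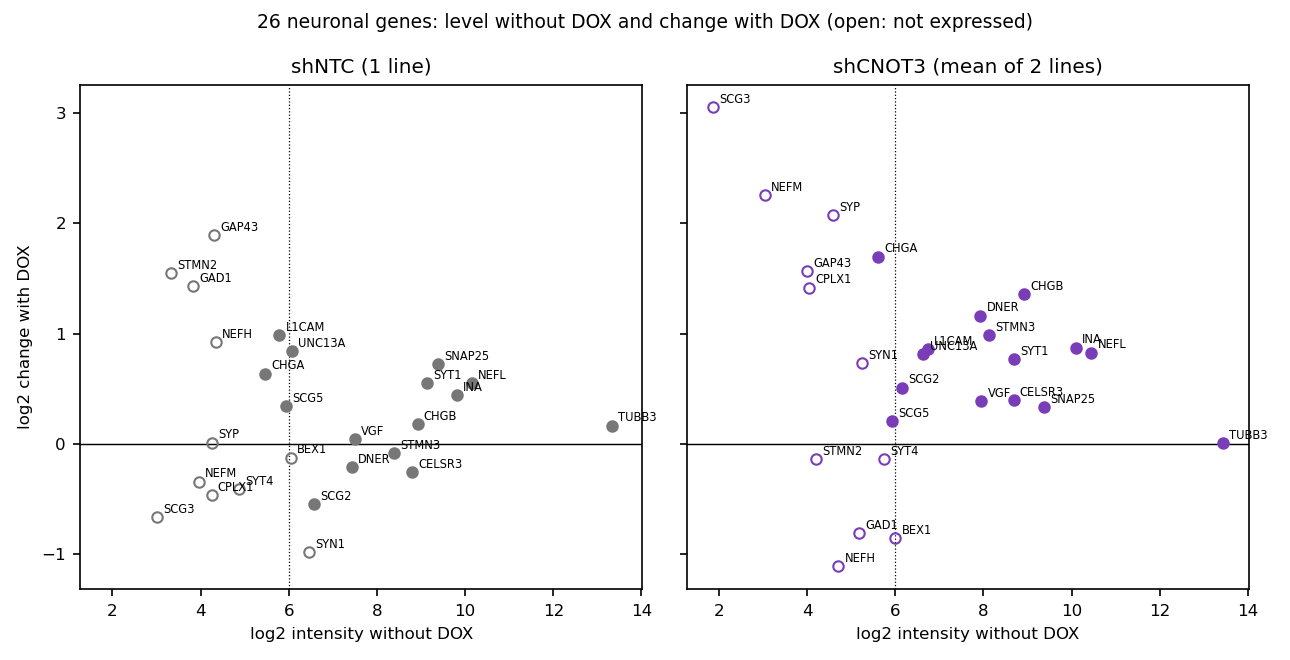
Log2 change with DOX (y axis) against log2 intensity without DOX (x axis) for the 26 neuronal genes, in shNTC (left) and as the mean of both shCNOT3 lines (right), with filled points for expressed genes and the level of 6 dotted. On the right all filled points lie above 0, from 0.01 for TUBB3 to 1.70 for CHGA. The largest changes, such as 3.05 for SCG3, belong to genes that were not expressed. The fill uses all arrays, with DOX included, so it depends on the change itself. Over the arrays without DOX alone, CHGA (5.56) was under 6, and BEX1 (6.02), open here and lower in both hairpins, was over it.

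A wider set of genes known as REST targets had a median change close to that of all genes. Of 34 such genes outside the list, among them ion channels and transmitter receptors, 31 were measured and 12 expressed. Of these 12, 5 were higher and 4 lower in both hairpins, against 33.2% and 26.9% of all genes, and the median was 0.03 here and over all genes. None passed after adjustment, with 2 higher and 1 lower at p under 0.05 before it, against 7.5% and 7.1% of all genes. CPLX2, a complexin like CPLX1, was lower in both hairpins (log2 -1.17 and -1.03, adjusted p = 0.0517), from 2961 to 1319 in shCNOT3-1, while shNTC gave 0.23. DISP2 (1.14 and 2.10) and GRIN1, a subunit of NMDA receptors (2.06 and 0.85), were higher but gave 2.32 and 1.16 in shNTC. CRH, corticotropin-releasing hormone, gave 0.38 and 0.96 against 0.07. DISP2 and GRIN1 were the 2 genes higher at an unadjusted p under 0.05. Like CRH, they were under 6 in the mean log2 of the arrays without DOX. These genes therefore counted as expressed through their arrays with DOX.

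Of 19 other cofactors of REST, 17 were measured and expressed, with 5 higher and 7 lower in both hairpins, against 33.2% and 26.9% of all genes, and a median of -0.09. None passed, with 1 higher and 4 lower at p under 0.05 before adjustment, against 7.5% and 7.1%. In 4 of the 17 both shCNOT3 arrays with DOX lay below all others, against 12.8%, and beyond shNTC 0 were higher and 3 lower at that unadjusted level, against 4.5% and 3.93%. RBBP4, a histone-binding subunit of SIN3 complexes, gave -2.18 and -0.43 against -0.19 in shNTC, CTDSPL, a phosphatase related to CTDSP1, -0.58 and -0.77 against 0.58, and SUDS3, a SIN3 subunit, -0.60 and -0.43 against 0.38. CDYL, a chromodomain protein that bridges REST and EHMT2, gave 0.43 and 0.70 against -0.12. Among 8 measured genes of REST turnover, 4 were higher and 3 lower in both hairpins, against 33.2% and 26.9% of all genes. None passed, with 0 higher and 1 lower at p under 0.05 before adjustment, against 7.5% and 7.1%. BTRC, the ubiquitin ligase adaptor that targets REST for degradation, gave -0.23 and -0.99 against -0.06, and USP7, a deubiquitinase of REST, 0.26 and 0.26 against 0.01. CUL1 gave 0.23 and 0.26 and the kinase CSNK1A1 0.13 and 0.56.

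The cells kept the markers of an epithelial line. All 6 epithelial markers were expressed on the arrays, with a summed intensity of 83386 to 95403, most of it from KRT8 and KRT18. KRT18, EPCAM, KRT19 and CLDN7 gave hairpin changes of 0.06 and 0.15, -0.47 and -0.37, 1.13 and 0.45, and 0.53 and 0.81. KRT8 and CDH1 differed in direction between the hairpins. KRT8 read 35036 then 42145 in shCNOT3-1 and 34346 then 30881 in shCNOT3-2, and CDH1 4651 then 6793 and 5508 then 4296. Of 6 neuron markers 2 were over the level, RBFOX3 and SLC17A7, and the summed intensity was 649 and 629 in the shCNOT3 lines with DOX and 539 to 759 in the 4 other arrays. TH, the enzyme of dopamine synthesis, read 1.52 to 7.18. Of 4 measured neuroendocrine markers DDC alone was expressed, and their summed intensity was 840 in shCNOT3-1 and 1576 in shCNOT3-2 with DOX and 1490 to 1839 in the 4 other arrays. DDC, the decarboxylase that makes dopamine and serotonin, read 1375 then 1766 in shNTC, 1555 then 798 in shCNOT3-1 and 1519 then 1549 in shCNOT3-2, lower with DOX in 1 hairpin only. INSM1, a transcription factor of neuroendocrine cells that was not expressed here, read 5.16 and 4.46 in the shCNOT3 lines with DOX against 12.2 to 43.6 elsewhere. Of 4 glial markers MBP alone was expressed. Of 8 measured neural transcription factors 2 were expressed and none passed, and SOX2 read 393 then 491 in shNTC, 310 then 94.2 in shCNOT3-1 and 337 then 170 in shCNOT3-2 (log2 -1.71 and -0.98 against 0.32, adjusted p = 0.0875).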

How the data were processed

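The authors deposited 1 intensity per probe set on a linear scale. The submitters' processing notes name MAS5, with settings not given in the sources used here. Precision is limited by the number of arrays. The trimmed mean (2% at each end) was 500.1 on every array and 0.369% to 0.688% of probe sets lay at the floor of 1. Symbols of 41037 of 41091 probe sets listed with 1 gene were updated through RefSeq. The scale of analysis was log2(intensity + 1), on which changes of dim genes are shrunk.

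Genes whose brightest probe set had a mean log2 of at least 6 were tested, 12569 in all, with limma 3.58.1 in R 4.3.3 (lmFit, eBayes with an intensity trend, 2-sided, Benjamini-Hochberg over all genes, threshold 0.05). The model had the line as a block, since the labels pair each line with itself, and 1 term for the shCNOT3 arrays with DOX. That model tests the mean change of the hairpins against no change, not against shNTC. A second model added a DOX term and tests the change beyond shNTC. The procedure was tested on simulated data, where signs and sizes of the changes were recovered but the share of false calls was above the nominal level in most runs. Per-line changes, counts and medians are descriptions. All listed genes are named, and of each further list up to 4 expressed genes with the largest smaller hairpin change of one sign. The members and lists were chosen with earlier results of these data known. Alternatives covered the added constant, scaling, filters, choice of probe set, variance prior, block and each line. Python 3.11.15 and matplotlib 3.10.9 drew the figures.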

Additional observations from a re-analysis of the deposited data

Results flagged for a closer look

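VGF differed in direction between the hairpins by at least 0.5 on the log2 scale each way, the only expressed gene of the 34 to do so. Its log2 change was -0.58 in shCNOT3-1 and 1.36 in shCNOT3-2, against 0.04 in shNTC. With 1 pair of arrays per line the difference was not tested.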

How the results depend on the processing

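The REST change of the hairpins stayed between -1.90 and -1.46 under every alternative but 1, the mean of its probe sets (-0.47, 3 probe sets of which 1 is dim). The count of neuronal genes higher in both hairpins was 17 of 26 with no filter. It was 9 to 11 of 13 to 15 under the other alternatives that kept both hairpins. With a hairpin line left out, higher and lower refer to the remaining hairpin alone. In shCNOT3-2 alone 14 of 15 were higher and 1 lower, and in shCNOT3-1 alone 12 were higher and 3 lower. The 33.2% of all genes higher in both hairpins is no comparison for these single-hairpin counts. Beyond shNTC, the counts are of changes above or below that of shNTC in both hairpins. Those lower in both numbered 3 with no filter, 2 beyond shNTC and 1 with the filter on the 3 arrays without DOX, which was chosen after seeing the data. Their median was 0.51 with the mean of probe sets and 0.35 beyond shNTC. The number of listed genes called as higher was 0 after quantile normalization, with no filter, with the filter at the median of all probe sets, with the mean of probe sets, with no intensity trend, beyond shNTC and with the added filter, and 2 with no replicate block, where CHGB and DNER passed. None of the 33 genes other than REST was called as lower under any alternative. Over all genes the calls numbered 3 with no filter, 6 with the mean of probe sets, 0 with no intensity trend, 0 beyond shNTC and 191 with no replicate block. With each line left out in turn, calls over all genes ran from 39 to 76, the REST change from -1.90 to -1.47, neuronal genes higher from 11 to 14 and lower from 0 to 3, their median from 0.75 to 0.88, and listed genes called as higher from 0 to 1. Of the 22 expressed genes other than REST, 10 kept their sign under every alternative in which they were measured, 8 of them neuronal: SYT1, CHGA, CHGB, STMN3, NEFL, INA, CELSR3 and DNER. The filters, the prior without intensity trend and the fit without shNTC leave the mean hairpin change as it is. Those alternatives therefore cannot change a sign. The same share over all genes was not computed. CHGA gave no value with the filter on the 3 arrays without DOX, nor STMN3 with the mean of probe sets. A single array per line and state limits every value here, and signals near 63 or under are the least certain.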
